A study of Drosophila melanogaster with 6 samples.

Results

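10 genes that repair DNA or respond to its damage were examined in wing discs, sheets of larval epithelium from which adult wings form, with and without overexpression of Nrf2 (CncC in flies). They are agt, phr, phr6-4, Ude, mre11, Rad50, nbs, lok, p53 and PolZ1, and were taken by gene symbol out of the 13955 genes counted. The genes were chosen on the fold changes of these same libraries as well as on their function, so that the values given for them below describe these libraries and are not evidence that Nrf2 acts on DNA repair. All 10 had enough counts to be tested.

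RNA was sequenced from 3 control and 3 Nrf2 overexpressing samples, all from female larvae at the wandering L3 stage kept at 28 °C. By the study's Methods both genotypes carried hs-FLP, a tub-Gal4 driver with UAS-CD8-GFP, and tub-Gal80ts, a temperature-sensitive inhibitor of Gal4, and the Nrf2 overexpression larvae carried UAS-nrf2 in addition. The labels instead call the controls wild type and name them yw. If the controls lacked the driver, differences of strain, driver and Gal80ts cannot be told apart from those of Nrf2. The tubulin promoter is active in all cells of the disc, and in bulk RNA more cells that express a gene and more RNA per cell cannot be told apart. The labels do not say whether the replicates came from separate crosses, so p-values measure the spread between these samples.

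Cells correct DNA lesions in several ways. Some lesions are reversed directly, by an alkyltransferase or by light-driven photolyases, and others are cut out and replaced. Breaks of both strands are sensed by the MRN complex of Mre11, Rad50 and Nbs, which activates the kinase ATM (tefu in flies). The kinase Chk2 (lok) then acts on p53, a transcription factor that in flies switches on genes of cell death. Lesions that block replication can be bypassed by specialised polymerases. Nrf2 is known as an activator of genes of the oxidative stress response.

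The depth of the counts was even, between 16464410 and 16682764 per library. cnc, the overexpressed gene, had 1983, 1777 and 1848 counts in control and 84044, 147169 and 172120 in Nrf2 overexpression, which fits the labels. Of 7 wing disc genes listed as markers, the 5 that were matched (vg, nub, en, hth and tsh) summed to between 1055 and 1223 CPM (the count scaled to library size) in control and between 1115 and 1294 in Nrf2 overexpression. 5 haemocyte markers summed to at most 19.6 CPM and 5 male germline markers, 3 of which never exceeded 3 counts, to at most 2.22 CPM in any library. Most haemocyte counts were of Pxn, with 167, 200 and 139 in control and 246, 292 and 230 in Nrf2 overexpression. Hml (40, 40 and 25 against 23, 36 and 9) and srp (15, 11 and 7 against 4, 6 and 2) tended the other way. He and NimC1 had at most 5 counts in any library. Fat body markers, of which 5 of 5 were matched, were uneven, with a sum of 8.94 to 437 CPM in control and 9.46 to 78.2 CPM in Nrf2 overexpression, and were highest in control replicate 2. Myoblast and muscle markers (5 of 5 matched) ran from 174 to 190 CPM and from 161 to 216 CPM. Within that sum, Mhc had 37, 266 and 48 counts in control and 820, 331 and 254 in Nrf2 overexpression. By contrast, twi had 1042, 1035 and 947 counts in control and 854, 551 and 616 in Nrf2 overexpression. Tracheal markers (2 of 3) ran from 289 to 356 CPM and from 304 to 434 CPM. Most of that sum was vvl (3638 to 5825 counts) and the rest trh (952 to 1420). Whether vvl marks trachea alone was not tested. Markers of neurons and glia (3 of 3) ran from 32.9 to 38.4 CPM and from 34.9 to 44.4 CPM. The part of these cells in the results was not tested.

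9 of the 10 genes were higher in Nrf2 overexpression and none was lower at an adjusted p-value under 0.05, against 30.9% of all 8361 genes tested that were higher and 31.6% that were lower. In the same 9 genes every Nrf2 overexpression library lay above every control library, which held for 33.6% of all genes, whereas 34.9% of all genes lay below it throughout. With a fold change of at least 1.4 required in addition, 7 of the 10 were higher, against 20.5% of all genes, and 21.1% of all genes were lower. The members were picked with these values known, so nothing is read from the counts. Their median log2 fold change was 0.83, against -0.01 over all genes tested. The plot of scaled counts shows each library.

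**Figure D1:**
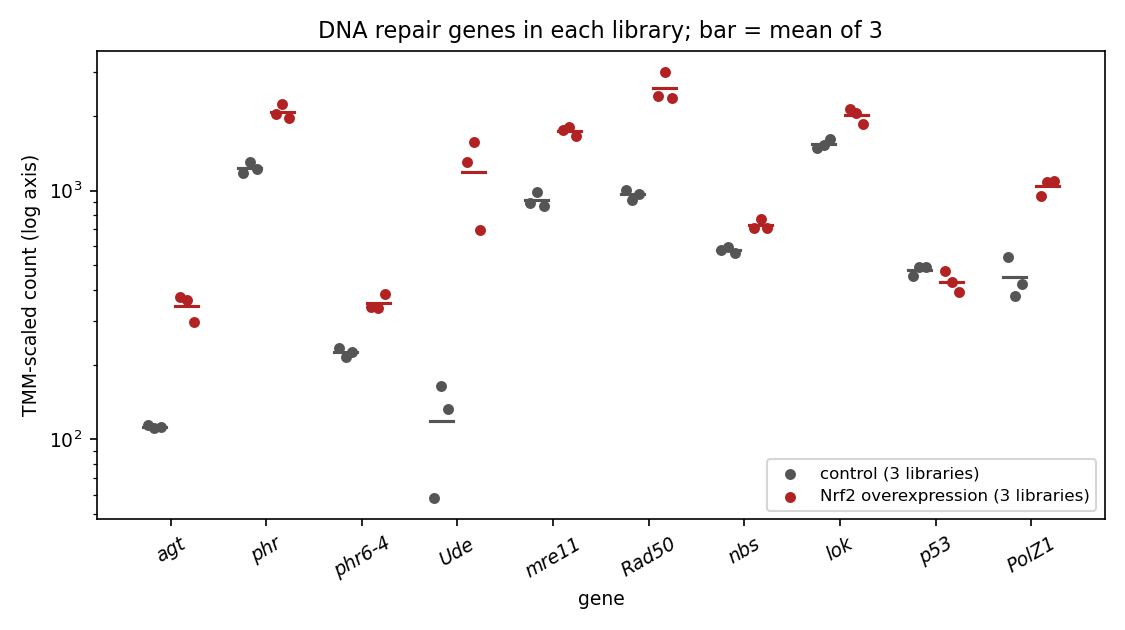
Counts of the 10 genes in each library after scaling by TMM (log axis), for control (grey) and Nrf2 overexpression (red), with a bar at the mean of 3 libraries. Ude moved furthest and was also the most uneven between replicates, and p53 is the only gene whose groups overlap.

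Ude, which encodes a nuclease that degrades DNA containing uracil, had the largest difference. It lies on chromosome 3R from 24797460 to 24799668 of BDGP6.54, on the minus strand. In order of replicate number, Ude had 59, 157 and 128 counts in control and 1327, 1620 and 695 in Nrf2 overexpression. Even the lowest Nrf2 overexpression library was thus well above the highest control, although libraries of the same genotype differed by more than for any other of the 10 genes. The scaled count was 118 ± 54.6 in control and 1183 ± 446 in Nrf2 overexpression (SD, n = 3 in each), with a coefficient of variation of 46.1% and 37.7%. The log2 fold change was 3.33 (standard error, SE, 0.37), or 10-fold. It was 2.99 without control replicate 1, the library with the lowest count, and 3.63 without control replicate 2. The level of Ude did not follow that of cnc among the 3 Nrf2 overexpression libraries. Replicate 3 had the highest cnc count, 172120, and the lowest Ude count, 695. That was not particular to Ude. By count, replicate 3 was also the lowest of the 3 for agt, phr, mre11, Rad50, nbs, lok and p53, but not for phr6-4 and PolZ1.

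Of the exonic bases of Ude, 496 (30.8%) are shared with Ets96B, a gene of the ETS transcription factor family on the opposite strand. Ets96B had 7, 16 and 18 counts in control and 112, 110 and 44 in Nrf2 overexpression. Its log2 fold change was 2.61 (SE 0.43, edgeR adjusted p = 5.89e-04). Within each library the Ets96B count was a small share of the Ude count, between 10.2% and 14.1% in control and between 6.33% and 8.44% in Nrf2 overexpression. As the use of strand in counting is not stated, reads of the shared stretch cannot be assigned to either gene. Among all genes tested, the profiles most like that of Ude over the 6 libraries, by the distance between centred log2 CPM values, were those of EbpIII (distance 0.72), Tsf3 (0.73) and chinmo (0.85). Their log2 fold changes were 3.17, 3.06 and 3.25, near the 3.33 of Ude. The distance takes in the difference between groups, so it does not show that these genes are regulated together.

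**Figure D2:**
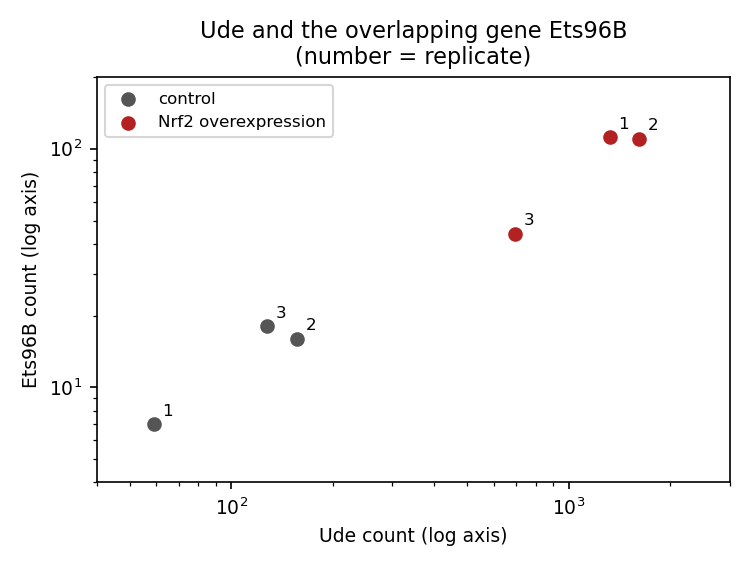
Counts of Ets96B against those of Ude in the 6 libraries (both axes logarithmic), numbered by replicate. The 3 Nrf2 overexpression libraries (red) hold more of both genes than any control library (grey), and replicate 3 is the lowest of them for both.

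Of the other genes listed for their part in keeping uracil out of DNA, dUTPase and Smug were measured and Thd1 was not analysed here. dUTPase, which removes dUTP before it can be built into DNA, fell from 8594 ± 1059 to 5400 ± 719 scaled counts (SD, n = 3 in each), with a log2 fold change of -0.67 (SE 0.13, edgeR adjusted p = 0.00145). Its exons are short, 824 bases in all, and its log2 fold change was -0.34 (adjusted p = 0.0145) after correction for exon length. Smug, a uracil-DNA glycosylase, rose with a log2 fold change of 0.71 (SE 0.13, edgeR adjusted p = 9.55e-04). The count of Smug was 129, 120 and 132 in control and 237, 222 and 192 in Nrf2 overexpression, so that the groups did not overlap.

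The enzymes of direct repair were higher in every Nrf2 overexpression library. agt, the alkyltransferase that takes alkyl groups off the O6 position of guanine, lies on chromosome 3R from 6658806 to 6660100, on the minus strand, in a single exon. It had 116, 106 and 108 counts in control and 383, 378 and 297 in Nrf2 overexpression. Controls were nearly level and lay far below the others. The log2 fold change was 1.62 (SE 0.13), a 3.06-fold higher level, and 1.76 with the length trend removed. Its exon shares 379 bases, 29.3% of it, with twr on the opposite strand. twr fell, from 4504 ± 89.7 to 2426 ± 183 scaled counts (SD, n = 3 in each), with a log2 fold change of -0.89 (SE 0.09, edgeR adjusted p = 3.20e-05), so that the gene and its neighbour moved in opposite directions.

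phr and phr6-4 encode photolyases, which use light to undo the damage that ultraviolet light causes between neighbouring pyrimidines. phr acts on cyclobutane dimers and lies on chromosome 2R from 7825289 to 7827319, on the plus strand. It had 1196, 1242 and 1177 counts in control and 2078, 2314 and 1961 in Nrf2 overexpression, a log2 fold change of 0.75 (SE 0.08). phr6-4 repairs the other main ultraviolet product and lies on chromosome 2L from 20643351 to 20645791, on the minus strand. Its counts were lower, 236, 205 and 217 in control and 347, 350 and 385 in Nrf2 overexpression, with a log2 fold change of 0.66 (SE 0.10). Both photolyases differed by a similar factor. Per kilobase of exon, the ratio of phr to phr6-4 within a library was 6.07 ± 0.552 in control and 6.49 ± 0.84 in Nrf2 overexpression (SD, n = 3 in each), and its ranges overlapped.

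The MRN genes were all higher, but by unequal amounts. Rad50, the ATPase that holds DNA ends together, lies on chromosome 2R from 22421013 to 22425482, on the plus strand. It had 1025, 878 and 929 counts in control and 2453, 3108 and 2357 in Nrf2 overexpression, a log2 fold change of 1.42 (SE 0.11). mre11, the nuclease of the complex, lies on chromosome 2L from 11282090 to 11284335, on the plus strand. It had 906, 942 and 836 counts in control and 1789, 1862 and 1663 in Nrf2 overexpression, a log2 fold change of 0.92 (SE 0.08). nbs, which links the complex to ATM, lies on chromosome 3L from 9720414 to 9723194, on the minus strand. nbs counts were 587, 564 and 538 in control and 721, 800 and 709 in Nrf2 overexpression, where the lowest library was still above the highest control. Its log2 fold change was 0.34 (SE 0.08), the smallest of the 9 genes that were higher.

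The RNA of the subunits therefore stood in other proportions in each genotype. Counted per kilobase of exon, Rad50 was 1.07 ± 0.0665 times the level of nbs in control and 2.26 ± 0.194 times in Nrf2 overexpression (SD, n = 3 in each). The ratio of mre11 to nbs was 2.05 ± 0.0909 and 3.08 ± 0.109, and that of Rad50 to mre11 was 0.523 ± 0.0542 and 0.735 ± 0.0793. None of these ranges overlapped between genotypes. Such ratios within a library do not depend on how libraries are scaled. They do depend on exon length where the fold change does, and Rad50 has the longest exons of the complex, 4072 bases against 2013 for mre11 and 2599 for nbs. With the length trend removed, the log2 fold changes were 1.23 for Rad50, 0.96 for mre11 and 0.30 for nbs, in the same order.

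**Figure D3:**
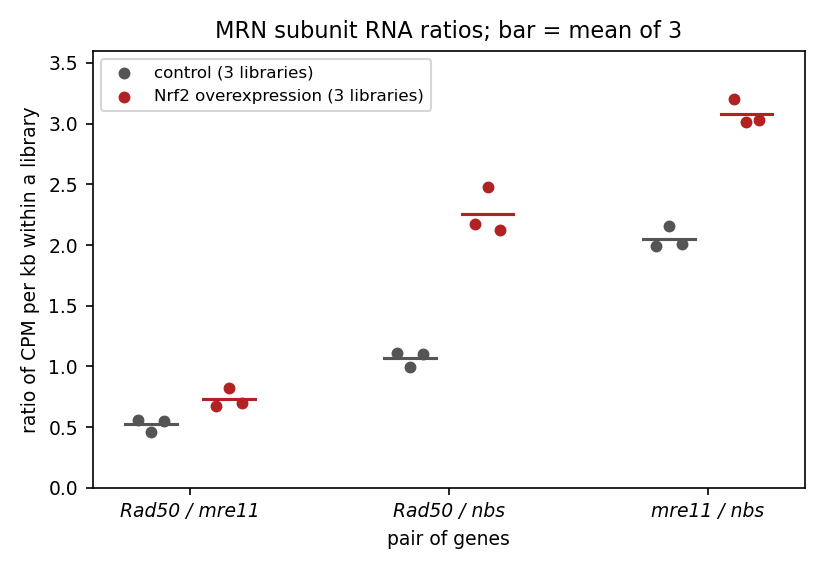
Ratio of CPM per kilobase of exon between pairs of MRN genes within each library, for control (grey) and Nrf2 overexpression (red), with a bar at the mean of 3. All 3 ratios are higher in every Nrf2 overexpression library, most of all Rad50 over nbs, which goes from a mean of 1.07 to 2.26.

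The checkpoint kinase and p53 differed from each other. lok, the fly Chk2, lies on chromosome 2L from 20061422 to 20064381, on the plus strand. It had 1511, 1460 and 1558 counts in control and 2169, 2123 and 1869 in Nrf2 overexpression, a log2 fold change of 0.38 (SE 0.08). p53 lies on chromosome 3R from 23049657 to 23054082, on the minus strand. p53 counts were 461, 471 and 473 in control and 483, 444 and 392 in Nrf2 overexpression, and is the gene of the 10 whose groups overlapped and which did not pass the threshold. Its log2 fold change was -0.16 (SE 0.10) and was below 0 under every alternative run, between -0.23 and -0.07. Of the exonic bases of p53, 812 (38.0%) are shared with asRNA:CR46089 on the opposite strand, which is not among the genes counted. As the use of strand in counting is not stated, reads of that RNA may or may not be part of the p53 count.

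PolZ1 encodes the catalytic subunit of DNA polymerase zeta, which copies past lesions. It lies on chromosome 2R from 7793625 to 7801044, on the plus strand, 24244 bases from phr. It had 552, 361 and 407 counts in control and 974, 1123 and 1102 in Nrf2 overexpression. Control replicate 1 stood above the other controls but well below the lowest Nrf2 overexpression library. The log2 fold change was 1.22 (SE 0.13), and 1.38 without that library. PolZ1 has the longest exons of the 10 genes, 6750 bases, and its log2 fold change was 0.89 with the length trend removed.

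Across the genes tested, the log2 fold change rose with exon length, with a slope of 0.206 per doubling. The median exon length of the 10 genes was 2151.5 bases, against 2153 over the genes tested that have a length. Removing the trend moved the median over the 10 genes from 0.83 to 0.84 on the log2 scale, lowered Rad50 and PolZ1, raised agt and Ude, and left 9 of the 10 higher. The plot of fold changes gives both values for each gene.

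**Figure D4:**
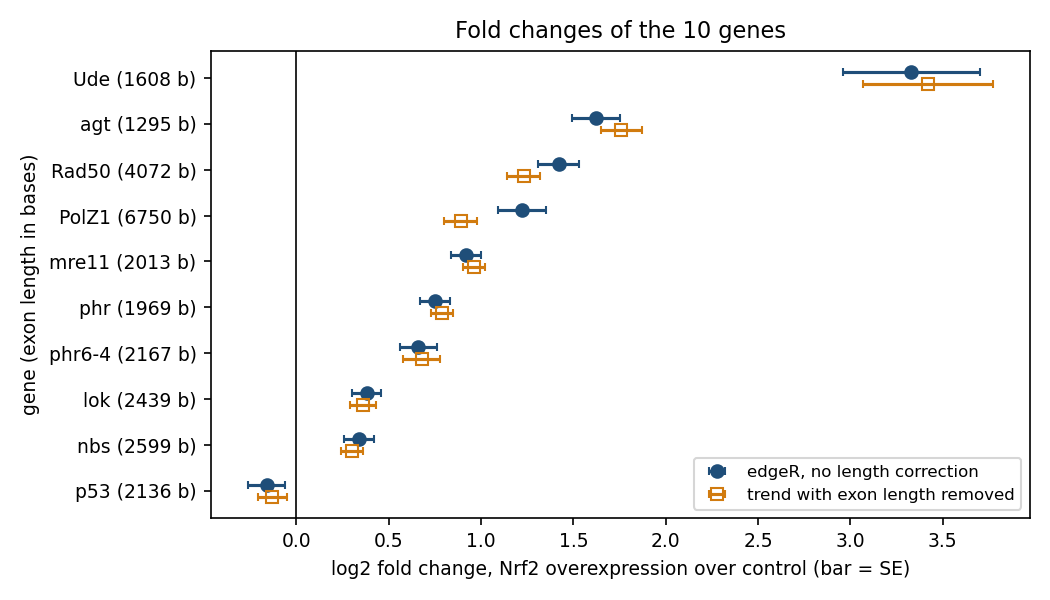
Log2 fold change of each of the 10 genes in Nrf2 overexpression over control, with standard error, without a correction for exon length (filled circles) and with the length trend removed (open squares). Only Rad50 and PolZ1, with the longest exons, fall clearly with the correction, and p53 alone lies below 0.

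By level per kilobase of exon, lok (38.1 ± 1.66 CPM per kilobase, SD, n = 3) and phr (37.7 ± 1.91) were the highest of the 10 genes in control and did not differ beyond their spread. They were followed by mre11 (27.4 ± 1.87), Rad50 (14.3 ± 0.659), p53 (13.5 ± 0.629), nbs (13.3 ± 0.369), phr6-4 (6.22 ± 0.246), agt (5.23 ± 0.0739), Ude (4.43 ± 2.04) and PolZ1 (3.99 ± 0.762). Rad50, p53 and nbs lay within each other's range or close to it, as did Ude and PolZ1. In Nrf2 overexpression the order began with phr (63.3 ± 4.36), mre11 (51.8 ± 2.12), lok (49.6 ± 3.33) and Ude (44.3 ± 16.7). By mean, Ude thus went from 9th to 4th of the 10, with a range of 25.9 to 58.4 that covered the levels of mre11, lok and Rad50. Rad50 was 5th, at 38.1 ± 5.31, and stood above Ude in replicate 3 (34.7 against 25.9). PolZ1 remained the lowest, at 9.3 ± 0.703.

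The rest of DNA repair and of the damage response was taken from lists of 87 genes, of which 82 were matched to an identifier of the count files and 81 could be tested. Of these 81, 30 rose and 15 fell past the same threshold, or 37.0% and 18.5%, against 30.9% and 31.6% of all genes. Their median log2 fold change was 0.11, against -0.01 over all genes tested. It was 0.04 with the length trend removed, against -0.02 over all genes, and 33 rose and 15 fell. The genes went up and down within most pathways, as the plot of the lists shows. Each count by list below has as its background the 30.9% of all genes that rose and the 31.6% that fell.

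**Figure D5:**
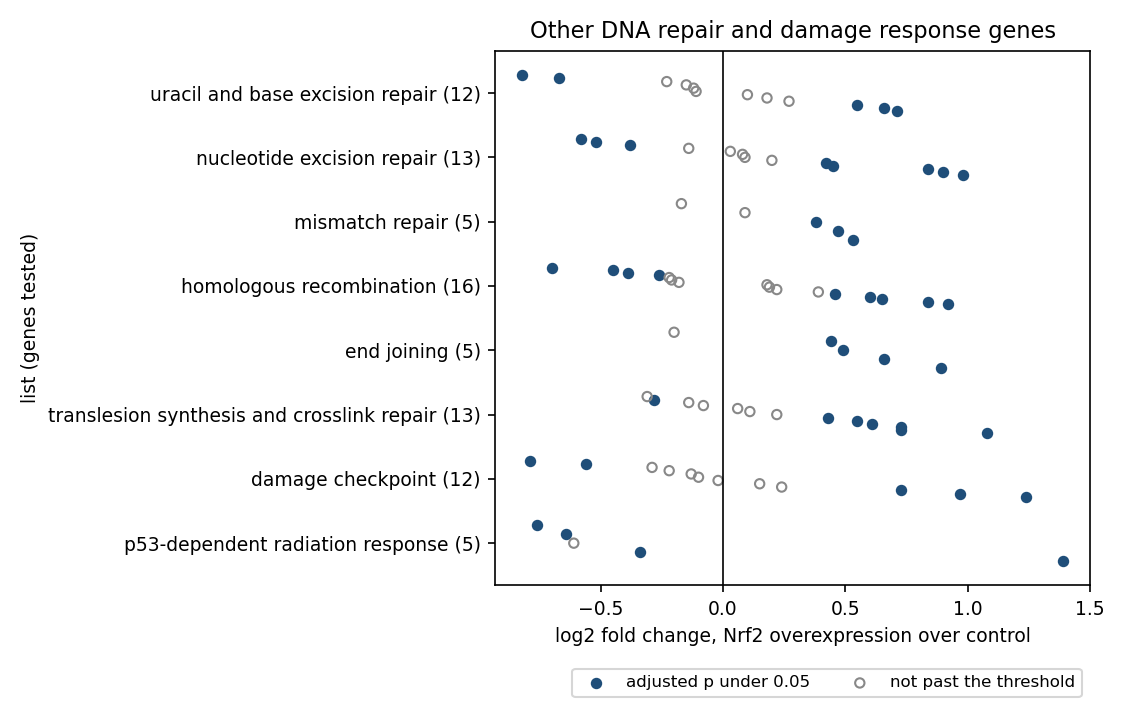
Log2 fold change of the 81 other DNA repair and damage response genes tested, 1 point a gene, by list. Filled points passed an adjusted p-value under 0.05 in edgeR's quasi-likelihood test. 30 filled points lie to the right of 0 and 15 to the left, and all but the lists of mismatch repair and end joining have some on either side.

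In base excision repair, which cuts out single damaged bases, 3 of 12 genes rose and 2 fell, with a median log2 fold change of 0.00. Besides Smug, those that rose were XRCC1, a scaffold of single-strand break repair (log2 fold change 0.66, SE 0.10, edgeR adjusted p = 3.16e-04), and Parg, which removes poly-ADP-ribose (0.55, SE 0.11, edgeR adjusted p = 0.00205). Besides dUTPase, the flap nuclease Fen1 fell, with a log2 fold change of -0.82 (SE 0.13, edgeR adjusted p = 3.58e-04). The 7 others did not pass the threshold. Among them, the log2 fold changes were -0.23 for Rrp1, -0.12 for DNAlig1, -0.11 for Ogg1, 0.10 for Parp, 0.18 for gkt and 0.27 for Nthl1.

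In nucleotide excision repair, which removes bulky lesions as a short stretch of DNA, 5 of 13 genes rose and 3 fell. The largest rises were those of the damage sensor pair Xpc (log2 fold change 0.98, SE 0.10, edgeR adjusted p = 4.61e-05) and Rad23 (0.90, SE 0.10, edgeR adjusted p = 5.83e-05). The largest falls were those of Tfb5, a small subunit of TFIIH (-0.58, SE 0.11, edgeR adjusted p = 0.00103), and Xpac, the fly XPA (-0.52, SE 0.11, edgeR adjusted p = 0.0021). With the length trend removed these were -0.26 and -0.34, both still past the threshold. Of 5 mismatch repair genes, 3 rose and none fell. They include Msh6, which takes part in recognising mismatches (0.47, SE 0.11, edgeR adjusted p = 0.00349), for which the length-corrected value was 0.28 (adjusted p = 0.0545).

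In homologous recombination 5 of 16 genes rose and 4 fell. okr, the fly Rad54, had a log2 fold change of 0.92 (SE 0.10, edgeR adjusted p = 4.70e-05), and the topoisomerase gene Top3alpha one of 0.84 (SE 0.08, edgeR adjusted p = 2.11e-05). mms4, a partner of the nuclease mus81, fell (-0.70, SE 0.12, edgeR adjusted p = 7.73e-04). The nuclease gene slx1 fell too (-0.45, SE 0.16, edgeR adjusted p = 0.0287), but its adjusted p was between 0.0507 and 0.162 under the total-count, DESeq2, unfiltered, blocked and length-corrected fits, and between 0.0697 and 0.134 without control replicate 1 or 3 or Nrf2 overexpression replicate 2 or 3. In end joining 4 of 5 genes rose and none fell, with a median log2 fold change of 0.49. The largest rises were those of PolQ, the polymerase of end joining through short homologies (0.89, SE 0.11, edgeR adjusted p = 1.05e-04), and Irbp, the fly Ku70 (0.66, SE 0.13, edgeR adjusted p = 0.00148). PolQ has 6420 exonic bases, and with the length trend removed it had a log2 fold change of 0.56, below the 0.68 of Irbp.

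In translesion synthesis and crosslink repair, the pathway of PolZ1, 6 of 13 genes rose and 1 fell. PolZ2, the partner subunit of PolZ1, went from 85, 107 and 116 to 181, 179 and 132 counts (log2 fold change 0.61, SE 0.18, edgeR adjusted p = 0.0159, and 0.93 with the length trend removed). The bypass polymerases PolI (1.08, SE 0.09, edgeR adjusted p = 1.49e-05) and PolH (0.73, SE 0.09, edgeR adjusted p = 9.12e-05) rose as well. The gene that fell was ben, a ubiquitin-conjugating enzyme (-0.28, SE 0.09, edgeR adjusted p = 0.02), with an adjusted p of 0.0639 to 0.082 when single libraries were left out (control replicates 2 and 3 or Nrf2 overexpression replicate 2) and of 0.0659 with the replicate number as a block.

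Of 12 checkpoint genes, the list around lok and p53, 3 rose, 2 fell and 7 did not pass the threshold. The kinase genes tefu, the fly ATM, and mei-41, the fly ATR, had log2 fold changes of 1.24 (SE 0.12, edgeR adjusted p = 2.70e-05) and 0.97 (SE 0.11, edgeR adjusted p = 6.69e-05). Their exons are long, 8416 and 7899 bases, and the values were 0.85 and 0.60 with the length trend removed, both still past the threshold. grp, the fly Chk1, fell (-0.56, SE 0.09, edgeR adjusted p = 5.17e-04), and so did His2Av, the histone variant that is phosphorylated at breaks (-0.79, SE 0.12, edgeR adjusted p = 4.03e-04).

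Of 6 genes that respond to radiation through p53, 5 could be tested, of which 1 rose and 3 fell. The cell death genes rpr and hid and the TNF ligand gene egr were lower. rpr had 352, 325 and 337 counts in control and 316, 253 and 269 in Nrf2 overexpression (log2 fold change -0.34, SE 0.11, edgeR adjusted p = 0.0237). Its adjusted p was between 0.0513 and 0.67 under total counts, with the length trend removed, and without control replicate 2 or 3 or Nrf2 overexpression replicate 2 or 3. The log2 fold change of hid was -0.64 (SE 0.15, edgeR adjusted p = 0.00481), and that of egr was -0.76 (SE 0.14, edgeR adjusted p = 9.42e-04). Xrp1, a transcription factor gene, rose from 6568 ± 121 to 17271 ± 3357 scaled counts (SD, n = 3 in each), and its log2 fold change was 1.39 (SE 0.14, edgeR adjusted p = 3.05e-05). Corp had 4 to 29 counts in any library and did not pass the threshold (-0.61, SE 0.57), and skl had a single count in all 6 libraries together.

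Genes of replication and of the hormone ecdysone, which tracks the stage of the larva, also differed between the genotypes. Of 10 replication and S phase genes tested, 7 fell and none rose, against 31.6% and 30.9% of all genes tested. Their median log2 fold change was -0.54, and their sum was 2173 to 2596 CPM in control and 1256 to 1712 CPM in Nrf2 overexpression. PCNA, the sliding clamp of replication, had a log2 fold change of -1.24 (SE 0.13, edgeR adjusted p = 4.85e-05). Of 7 ecdysone response genes tested, 5 fell and 1 rose, against the same shares of all genes, with a median log2 fold change of -4.11. The gene that rose was ftz-f1, from 372 ± 91.5 to 2538 ± 555 scaled counts (SD, n = 3 in each). Its log2 fold change was 2.77 (SE 0.20, edgeR adjusted p = 7.19e-06). The part of the cell cycle or of the stage of the discs in the values of the 10 repair genes was not tested.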

How the data were processed

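Counts of reads per gene were deposited by the authors for each of 6 libraries, without normalization. The submitters' processing notes name FastQC 0.11.5, Bowtie and the build BDGP6, and the counting tool and its use of strand are not given in the sources used here. A series table with the same counts was not used. Symbols were found for 13661 of 13955 identifiers in the reference gene table. Gene places and exon lengths came, by identifier, from the BDGP6.54 annotation. Of the listed genes, those without an identifier match were left out, since the study's list of changed genes would have supplied names for changed genes only. No reference sequence was used here.

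Counts were filtered with filterByExpr, scaled by TMM and tested with the quasi-likelihood test of edgeR 4.0.16 in R 4.3.3, with Benjamini-Hochberg adjustment over 8361 genes. Scaled counts are counts divided by the relative effective library size. The SE of a fold change is its size over the square root of F. The length trend was removed by loess (span 0.5) on log2 exon length within each library, for the 8159 genes tested that have a length. The other alternatives were 3 other scalings, DESeq2 1.42.0, limma-voom (limma 3.58.1), 2 other filters, a block for the replicate number, omission of each library, a fold limit of 1.4 and an adjusted p-value under 0.01. The procedures were tested on simulated data. The common coefficient of biological variation was 0.115.

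The members, the lists and the tests were chosen with earlier results of these data known. Named were all members, cnc, the tested genes of the base excision repair and p53 lists, in each other repair list up to 2 genes with the largest rise and 2 with the largest fall among those past the threshold without overlap, and the 3 profiles nearest to Ude. Some genes that meet this rule are not reported here. PolZ2, PCNA, ftz-f1, skl and 3 genes that overlap a member (Ets96B, twr and asRNA:CR46089) were named in addition, with their values known, as were some cell type markers.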

Additional observations from a re-analysis of the deposited data

How the results depend on the processing

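The direction of each of the 10 genes and its side of the threshold were the same in all 150 values computed under the alternatives without a change of threshold. 9 of the 10 were higher in every fit, including those that left out a single library, and 7 with a fold limit of 1.4. Over all genes, that limit gave 1711 higher and 1760 lower genes, against 2585 and 2644, and among the other repair and damage response genes it left 9 lower, against 15, as did an adjusted p-value under 0.01, which also gave 9. When single libraries were left out, 29 to 33 of these others came out higher and 10 to 16 lower. Among the genes named with a fitted value, the sign changed for Ogg1 with the length trend removed (0.04) and for Corp without control replicate 1 (0.04, against values down to -1.07 without Nrf2 overexpression replicate 3), and neither passed the threshold in either fit. Whether the samples were paired by replicate number was not settled. Same-numbered libraries deviated from their group means with correlations of -0.209, 0.0878 and 0.127 over genes, and genes are not replicates. Libraries of unlike number were not compared in this way. The fat body markers were each lowest in replicate 3 of both genotypes. Lsp2, for example, had 524, 1813 and 17 counts in control and 276, 306 and 34 in Nrf2 overexpression. A replicate block gave 2287 higher and 2320 lower among all genes tested, 9 of the 10 genes were higher and none lower, and 30 of the other genes were higher and 11 lower. Genes with few counts, such as Corp and skl, limit what can be seen at this depth.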
